A study of Mus musculus with 15 samples.

Results

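The count tables of this study hold 3125 rows whose only name is a GenBank cDNA accession made of the letters AK and a number, with no gene symbol. Such accessions come from large collections of full-length mouse cDNAs, and rows of this kind can stand for long noncoding RNAs, unspliced or intronic transcripts, extended ends of known genes, or coding genes that had not been named when the annotation was made. The 150 rows described here were chosen by their level: they had the highest mean CPM (the counts of a row scaled to a common total of counts over all gene rows of a library) over the 3 WT vDG inputs. They are 150 of 32657 gene rows. Because the WT vDG inputs chose them, every comparison that uses those inputs is given as a description. The comparisons of the cKO IP with the cKO input, of the cKO and WT IPs, of the dDG inputs between genotypes and of the cKO inputs between regions used no library that entered the choice.

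RNA-seq was carried out on the dentate gyrus (DG) of adult mice of 8 to 12 weeks in 15 libraries and 6 groups. All mice carried the BAC driver Drd3-Cre KI198 and Rosa26-fsTRAP, which places an EGFP tag on the ribosomal protein L10a after Cre recombination, so the WT controls carried Cre and the tag as well. The cKO mice carried Htr4-Floxed in addition, in which exon 5 of the serotonin receptor gene Htr4 is removed by Cre. From the ventral DG (vDG) there were 3 WT and 2 cKO immunoprecipitates of tagged polysomes (IP, obtained by translating ribosome affinity purification, TRAP) and 3 WT and 2 cKO inputs of whole-tissue RNA, and from the dorsal DG (dDG) there were 3 WT and 2 cKO inputs. The driver acts in granule cells and mossy cells of the DG and in some pyramidal cells of the CA fields, and it does not fully follow the expression of Drd3. By the sample labels each IP pooled 3 mice and each input 2 mice, while the supplementary methods give 1 male and 1 female per replicate. In the labels, the inputs have cortex as their source and the DG as their region. In the vDG inputs the 6 granule cell markers summed to 1052 to 1203 CPM, with Prox1, the transcription factor that marks granule cells, at a mean of 701 CPM in WT.

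In TRAP, RNA is recovered through the ribosomes of the tagged cells. A messenger RNA that is being translated in those cells is kept in the IP, whereas an RNA that stays in the nucleus, is not bound by ribosomes, or is made mostly in untagged cells is found at a lower level in the IP than in the input. In bulk tissue, fewer cells of a type and less RNA per cell cannot be told apart. No function is attached to the AK names, so the rows are grouped below by level and by behaviour. A level in CPM is not corrected for length, and lengths of these rows were not used here, so the order of rows by CPM is an order of counts and not of molecules.

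Gene counts per library ranged from 19039295 to 30451430. The 150 AK rows took 1.66 to 3.80% of the counts in the 10 inputs and 0.411 to 0.440% in the 5 IPs, and these ranges did not overlap. Htr4 itself, counted over the whole gene, was at 14.3 to 19.2 CPM in the WT vDG inputs and at 29.6 and 30.8 CPM in the cKO vDG inputs, at 12.8 to 14.9 CPM in the WT IPs and at 24.3 and 28.1 CPM in the cKO IPs, and at 24.9 to 34.5 CPM and 48.0 and 52.2 CPM in the WT and cKO dDG inputs. These counts do not separate exon 5 from the other exons and so do not check the deletion.

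Of the 150 rows, 12 had a mean above 100 CPM in the WT vDG inputs, 86 lay from 10 to 100 CPM and 52 lay under 10 CPM, with a median of 14.8 CPM. The last rows in the order, AK084284, AK043844 and AK086065, had means of 5.98, 5.97 and 5.90 CPM. The first rows left out, AK081090, AK021007 and AK015545, had means of 5.84, 5.84 and 5.72 CPM, so the lower edge of the choice falls in a continuous range of levels. When the 150 highest AK rows were taken from the 5 dDG inputs, 137 rows (91.3%) were in both lists.

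A single row, AK140265, made up 73.3% of the summed mean CPM of the 150 rows in the WT vDG inputs. Only Rn45s, the ribosomal RNA precursor, had a higher mean there (named after the values were seen). AK140265 was at 23139, 15471 and 13447 CPM in the WT vDG inputs and at 31357 and 13002 CPM in the cKO vDG inputs. It was at 28501, 17716 and 11036 CPM in the WT dDG inputs and at 20259 and 19895 CPM in the cKO dDG inputs. In the IPs it was at 131 to 149 CPM in WT and at 251 and 162 CPM in cKO. Every IP was thus far below every input, and within the inputs the highest value was 2.84 times the lowest, with WT and cKO and vDG and dDG overlapping throughout. The other 149 rows summed to 5531 to 7238 CPM in the inputs and 3956 to 4193 CPM in the IPs, so most of the loss of summed AK counts in the IP was in this row.

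The next most abundant rows fell into a group that was nearly absent from the IP and a group that stayed. AK018753 was at 817, 702 and 560 CPM in the WT vDG inputs, at 921 and 497 CPM in the cKO vDG inputs, at 11.1, 9.43 and 9.41 CPM in the WT IPs and at 10.5 and 8.05 CPM in the cKO IPs. AK142750 was at 734, 671 and 524 CPM in the WT vDG inputs, at 806 and 431 CPM in the cKO vDG inputs, at 16.6, 12.7 and 10.9 CPM in the WT IPs and at 14.3 and 8.74 CPM in the cKO IPs. AK163440, the tenth in the order, was at 182, 167 and 92.3 CPM in the WT vDG inputs, at 137 and 83.2 CPM in the cKO vDG inputs, at 1.13, 1.11 and 1.70 CPM in the WT IPs and at 1.90 and 0.958 CPM in the cKO IPs. The lowest vDG input was 44.7, 26.0 and 43.7 times the highest IP of either genotype in AK018753, AK142750 and AK163440. AK018753 and AK142750 also moved together: the ratio of the first to the second stayed between 0.923 and 1.15 over the 10 inputs, while the 2 rows varied by 2.49 and 2.20 times. This ratio was chosen for description after the values were seen. The 6 other rows among the 10 most abundant differed far less between fractions, some upwards and some downwards.

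AK209647 was at 235, 195 and 258 CPM in the WT vDG inputs and at 228, 212 and 198 CPM in the WT IPs, with cKO vDG inputs at 229 and 267 CPM and cKO IPs at 214 and 216 CPM. AK083547 was at 256, 327 and 283 CPM in the WT vDG inputs and at 274, 308 and 299 CPM in the WT IPs. AK018679 was at 258, 241 and 266 CPM in the WT vDG inputs and at 195, 199 and 197 CPM in the WT IPs. These rows changed by small amounts between fractions when set beside AK140265. AK083197 had means of 226 ± 12.1 CPM (SD, n = 3) in the WT vDG inputs and 149 ± 17.5 CPM (SD, n = 3) in the WT IPs. AK013883 had means of 175 ± 5.43 CPM and 111 ± 2.72 CPM in the same groups (SD, n = 3). AK169831 was at 244, 275 and 220 CPM in the WT vDG inputs and at 274, 305 and 374 CPM in the WT IPs and had a mean of 318 ± 51.3 CPM in the WT IPs against 246 ± 27.4 CPM in the WT vDG inputs (SD, n = 3).

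**Figure D1:**
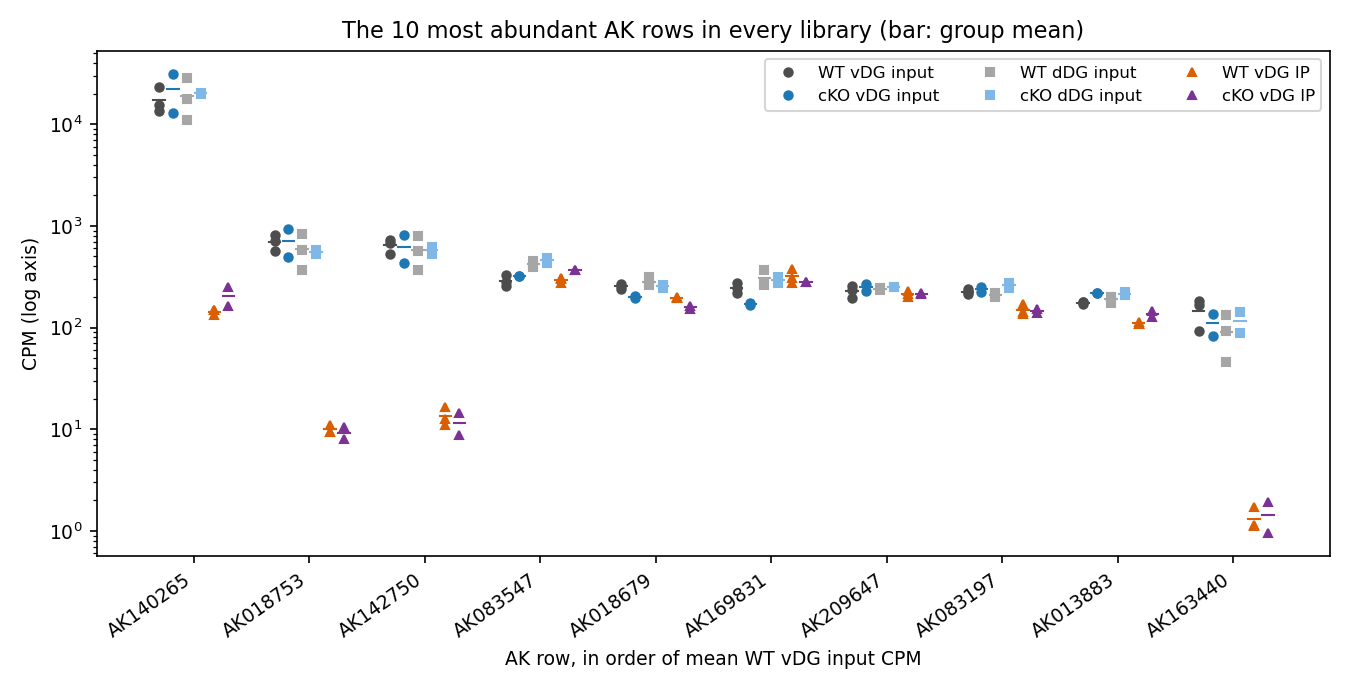
Each point is a library, with CPM on a log axis, for the 10 AK rows with the highest mean in the WT vDG inputs, coloured by group, and each bar is a group mean. AK140265, AK018753, AK142750 and AK163440 have every IP far below every input, and the other 6 rows differ far less, with AK169831 up to 1.84-fold higher in the cKO IP.

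Whether the AK rows were depleted or kept in the IP was tested in cKO, which did not enter the choice. Differences are given as log2 fold changes of the edgeR quasi-likelihood fit over 15126 rows, with FDR the Benjamini-Hochberg adjusted p over all of them. A row was called depleted at a fold under 0.5 and enriched at a log2 fold change of at least 0.32, both with FDR under 0.05. Of the 150 AK rows, 33 (22%) were depleted, against 10.7% of all rows tested, and 7 (4.67%) were enriched, against 11.4% of all rows tested. Among the 10217 rows at or above the level of the lowest AK row, 5.77% were depleted and 16.5% were enriched. The median log2 fold change was -0.32 over the 150 AK rows and -0.03 over all rows tested. With library size alone in place of TMM scaling, the median over all rows moved to -0.20 and that over the AK rows to -0.49. A missing call does not show that a row is kept, so a row was counted as kept where the lower end of the 95% interval of its log2 fold change was above -1. This held for 95 AK rows (63.3%), 7 of them enriched, against 68.9% of all rows tested and 89% of the rows at or above the level of the lowest AK row. For 22 rows the interval reached -1 or lower without a call.

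**Figure D2:**
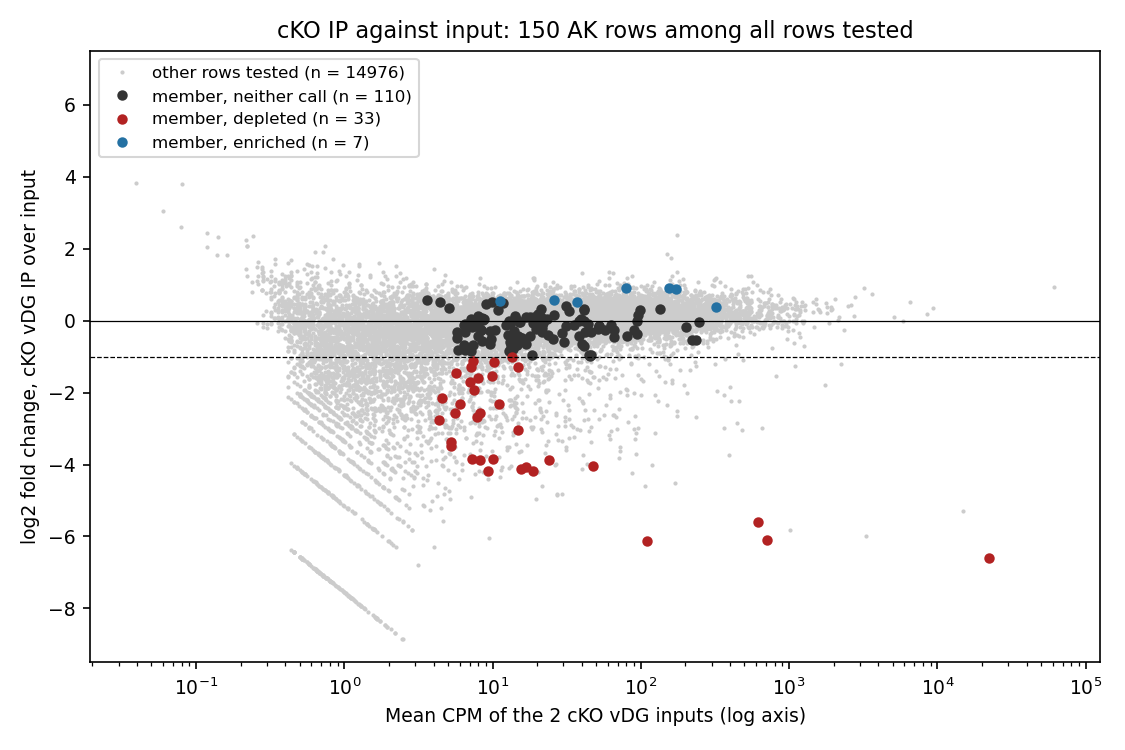
Each point is a row tested in the cKO IP against input comparison, placed by its mean CPM in the 2 cKO vDG inputs (log axis) and its log2 fold change, with the 150 AK rows (members) in colour, the dashed line at a fold of 0.5 and all other rows in grey. Of the AK rows 33 are depleted and 7 enriched, and 4 lie apart at high input level and log2 fold changes below -5.

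The depleted AK rows ranged widely. Of the 33, 16 had a log2 fold change below -3, an 8-fold loss, and 17 lay between -3 and -1. The lowest was AK140265, with a level in the IP that was 96.5-fold lower (log2 fold change -6.59, SE 0.38, FDR 1.57e-07). AK163440 followed at -6.13 (SE 0.30, FDR 5.37e-08), AK018753 at -6.10 (SE 0.28, FDR 3.83e-08) and AK142750 at -5.60 (SE 0.30, FDR 9.52e-08). The fifth was a low row, AK044468, at 7.86 and 10.8 CPM in the cKO vDG inputs and 0.443 and 0.460 CPM in the cKO IPs (log2 fold change -4.18, SE 0.36, FDR 5.86e-06). The 5 IPs of both genotypes lay below the 5 vDG inputs in 74 of the 150 AK rows, a count that was not made over all rows. The 33 depleted rows were among the 74, so this separation does not set them apart. Depth limits the lowest of them: 12 rows had a mean under 1 CPM in the cKO IPs, and in 4 rows some IP library held 3 counts or fewer, so fitted fold changes of those rows depend on the prior count of the fit.

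Among all rows tested in cKO with a mean above 100 CPM in the cKO vDG inputs, 13 had a log2 fold change below -3, and 4 of the 13 were AK140265, AK163440, AK018753 and AK142750. The other 9 were named after their values were seen and include Malat1, the abundant nuclear long noncoding RNA, at a mean of 14940 CPM in the cKO vDG inputs and 337 CPM in the cKO IPs. They also include DQ539915, another row named by its accession, at 3293 and 46.5 CPM, and Ndrg2, an astrocyte-enriched gene, at 394 and 26.5 CPM. By level in the WT vDG inputs, 4 of the 12 AK rows above 100 CPM were depleted in cKO (33.3%, beside 2.63% of the other rows at that level). From 10 to 100 CPM, 9 of 86 AK rows were depleted (10.5%, beside 5.32%), and under 10 CPM 20 of 52 (38.5%, beside 11.4% of the other rows from the level of the lowest AK row to 10 CPM). Depletion was thus more frequent at lower level among the other rows, while among the AK rows it was least frequent from 10 to 100 CPM.

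The 7 enriched AK rows rose by 1.29 to 1.89-fold. AK144265 was at 68.9 and 90.8 CPM in the cKO vDG inputs and 127 and 141 CPM in the cKO IPs (log2 fold change 0.92, SE 0.13, FDR 0.000345). AK155692 had a mean of 154 ± 8.27 CPM in the inputs (SD, n = 2) and was at 238 and 275 CPM in the IPs (log2 fold change 0.90, SE 0.11, FDR 0.000118). AK169831 was at 175 and 168 CPM in the inputs and 283 and 277 CPM in the IPs (log2 fold change 0.88, SE 0.10, FDR 4.54e-05). In these 3 rows both IPs lay above both inputs, and the call held under every alternative that was run for cKO. The smaller rises of AK086914 (log2 fold change 0.57, FDR 0.0079), AK011498 (0.54, FDR 0.0452) and AK083547 (0.36, FDR 0.012) each lost their call when some library was left out. With the replicate number as a block, 11 AK rows were enriched, beside 2152 rows of all in place of 1719. The number of enriched rows also varied when single cKO libraries were left out, which leaves 1 library in a group.

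In WT, which shares no library with the cKO comparison but holds the inputs that chose the rows, 36 of the 150 AK rows (24%) were depleted, beside 11.4% of all rows tested, and 3 (2%) were enriched, beside 7.72%. The median log2 fold change was -0.30. Of the rows depleted in cKO, 32 were depleted in WT too, which is 97.0% of the cKO list and 88.9% of the WT list. The 16 rows below -3 in cKO were all below -3 in WT. AK140265 had a log2 fold change of -6.79 (SE 0.21) in WT, AK163440 -6.67 (SE 0.28), AK018753 -5.98 (SE 0.17) and AK142750 -5.45 (SE 0.19). Over the 150 rows the WT and cKO log2 fold changes had a Pearson r of 0.97 and a Spearman rho of 0.89, and 135 rows had the same sign in both. The points share the annotation, the library kit and the scaling, so the r is a description across rows. Enriched rows overlapped less: AK169831 and AK155692 were enriched in both, which is 28.6% of the cKO list and 66.7% of the WT list. The WT count of enriched rows was 1 without WT IP replicate 2, without WT vDG input replicate 1 or without WT vDG input replicate 3. Over all rows these fits had 765, 588 and 749 enriched, in place of 1159.

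**Figure D3:**
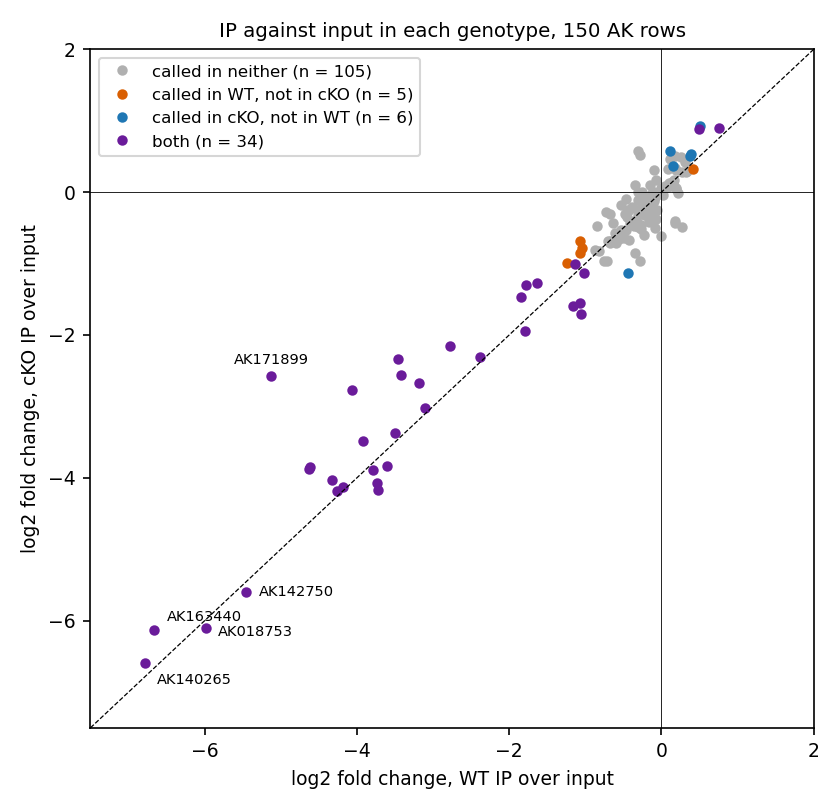
Each point is an AK row, placed by the log2 ratio of IP to input in WT (x axis) and in cKO (y axis), coloured by whether it was called depleted or enriched in both, either or neither genotype. The rows follow the dashed line of equal values, and AK171899 lies farthest above it, at -5.12 in WT and -2.58 in cKO.

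Other RNAs and cell types fell in the IP as well. Among 16 named long noncoding RNAs set beside the AK rows, all 16 were tested, 11 were depleted in cKO and 10 in WT, and 0 were enriched in either, with medians of -2.17 and -1.78. Malat1 had a log2 fold change of -5.30 in cKO, Miat, a neuronal long noncoding RNA, of -3.13, and Meg3, an imprinted long noncoding RNA, of -2.84. In contrast, Snhg1, a host gene of small nucleolar RNAs, was at 0.07 and Peg13, an imprinted long noncoding RNA of the brain, at 0.24, and neither was called. Markers of several untagged cell types fell too: 5 of 5 astrocyte markers, 5 of 5 microglia markers, 4 of 5 oligodendrocyte markers and 4 of 6 interneuron markers were depleted in cKO. The summed astrocyte markers were at 319 to 349 CPM in the cKO vDG inputs and 42.1 to 56.5 CPM in the cKO IPs, and the summed microglia markers at 14.8 to 20.6 CPM and 3.22 to 3.23 CPM. In other lists, 0 of 3 endothelial markers tested, 1 of 2 choroid plexus markers tested and 0 of 3 markers tested of progenitors and immature neurons were depleted. Dcx, a marker of immature neurons, was lower without reaching the fold limit (log2 fold change -0.82, FDR 0.00037). Granule cell markers had 0 of 6 depleted and 4 of 6 enriched, and mossy cell markers 0 of 3 and 0 of 3. The part of untagged cells and of nuclear RNA in the depletion of the AK rows was not tested.

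Deletion of Htr4 was compared with WT in each fraction and region. In the vDG IP, 149 of the 150 AK rows passed the filter on low counts and AK140725 did not. At an FDR under 0.1, the limit the study used for this comparison, 1 row was lower in cKO and 0 were higher (0.671%, against 0.42% of all rows tested in either direction). AK171960 was at 19.3, 18.9 and 18.8 CPM in the WT IPs and at 9.83 and 9.81 CPM in the cKO IPs (log2 fold change -0.92, SE 0.18, FDR 0.0705). The groups did not overlap in the IP, and in the vDG inputs, at 19.7, 19.4 and 16.2 CPM in WT and 13.0 and 16.8 CPM in cKO, they did. The call was lost without WT IP replicate 2 or without either cKO IP. By DESeq2, which called 353 rows of all against 60 in edgeR, 4 AK rows were lower and 1 was higher. The higher row was AK140265, at 131 to 149 CPM in the WT IPs and 251 and 162 CPM in the cKO IPs, with a log2 fold change of 0.56 in edgeR (SE 0.16, FDR 0.225). Summed interneuron markers were at 107 to 118 CPM in the cKO IPs and 156 to 173 CPM in the WT IPs, and Gad2, which makes the transmitter GABA, was itself lower in cKO (log2 fold change -0.91, FDR 0.0618). Granule cell markers were at 1329 to 1377 CPM in the cKO IPs and 1181 to 1289 CPM in WT. Their part in these calls was not tested. At an unadjusted p under 0.05, 17 AK rows (11.4%) passed, beside 11.7% of all rows tested.

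In the vDG inputs, where the WT libraries chose the rows, 8 AK rows (5.33%) were lower in cKO and 0 were higher at an FDR under 0.05, beside 2.44% of all rows tested. All rows were one-sided in the same way, with 2.33% lower and 0.108% higher, and 3.51% were lower among rows at or above the level of the lowest AK row. AK134859 was at 7.20, 8.97 and 7.45 CPM in WT and at 3.59 and 5.29 CPM in cKO (log2 fold change -0.85, SE 0.23). AK081223 was at 23.7, 18.2 and 16.9 CPM in WT and at 11.9 and 11.5 CPM in cKO (-0.76, SE 0.18). AK161964 had a mean of 23.4 ± 3.30 CPM in WT (SD, n = 3) and was at 17.0 and 12.7 CPM in cKO (-0.67, SE 0.18). In these 3 rows the cKO libraries lay below the WT libraries. The same 8 had log2 fold changes of -0.61 to -0.04 in the vDG IP and of -0.43 to 0.26 in the dDG input, with no call in either by edgeR on the libraries compared. In the vDG IP, AK043847 and AK134555 of the 8 were called lower by DESeq2 and with all 6 groups in one fit, and AK134555 also with library size alone, without a filter, and without WT IP replicate 1 or 3. With all 6 groups in one fit 0 AK rows were called, beside 140 rows of all in place of 385. Without cKO vDG input replicate 1, 0 AK rows were called beside 6 rows of all. Without cKO vDG input replicate 2, 0 AK rows were lower and AK140265, not among the 8, was higher, beside 50 rows of all. Leaving out WT vDG input replicates 1, 2 and 3 in turn left 6, 4 and 2 AK rows lower and 3, 0 and 1 higher, beside 638, 247 and 235 rows of all. Summed astrocyte markers were also lower in these cKO inputs, at 319 to 349 CPM against 442 to 523 CPM in WT, as were interneuron markers, at 386 to 392 CPM against 471 to 515 CPM. Microglia markers were at 14.8 to 20.6 CPM against 21.9 to 37.5 CPM. Their part in the lower AK rows was not tested.

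In the dDG inputs, 1 AK row was lower in cKO and 0 were higher (0.667%, against 0.0325% of all rows tested). AK144265 was at 135, 94.9 and 118 CPM in WT and at 54.0 and 49.8 CPM in cKO, and the groups did not overlap (log2 fold change -1.16, SE 0.15, FDR 0.0243). It was at 77.2, 85.3 and 115 CPM in the WT vDG inputs and at 68.9 and 90.8 CPM in the cKO vDG inputs, where the groups overlapped and the log2 fold change was -0.24 (SE 0.16, FDR 0.517). The dDG call was lost without either cKO dDG input and with all 6 groups in one fit. At an unadjusted p under 0.05, 17 AK rows (11.3%) passed in the dDG, beside 12.2% of all rows tested. Summed astrocyte markers were at 322 to 429 CPM in the cKO dDG inputs and 441 to 472 CPM in WT, and microglia markers at 21.1 to 21.8 CPM and 25.4 to 44.5 CPM. Choroid plexus markers were at 18.2 to 23.1 CPM in cKO and 32.3 to 148.2 CPM in WT. These sums did not overlap between genotypes. Among the choroid plexus markers Ttr, which encodes the thyroid hormone carrier transthyretin, was at 4.20, 76.7 and 120 CPM in WT dDG replicates 1 to 3 and at 4.25 and 1.61 CPM in cKO, so WT replicates 2 and 3 stood apart and the groups overlapped. The part of these markers in the call of AK144265 was not tested.

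**Figure D4:**
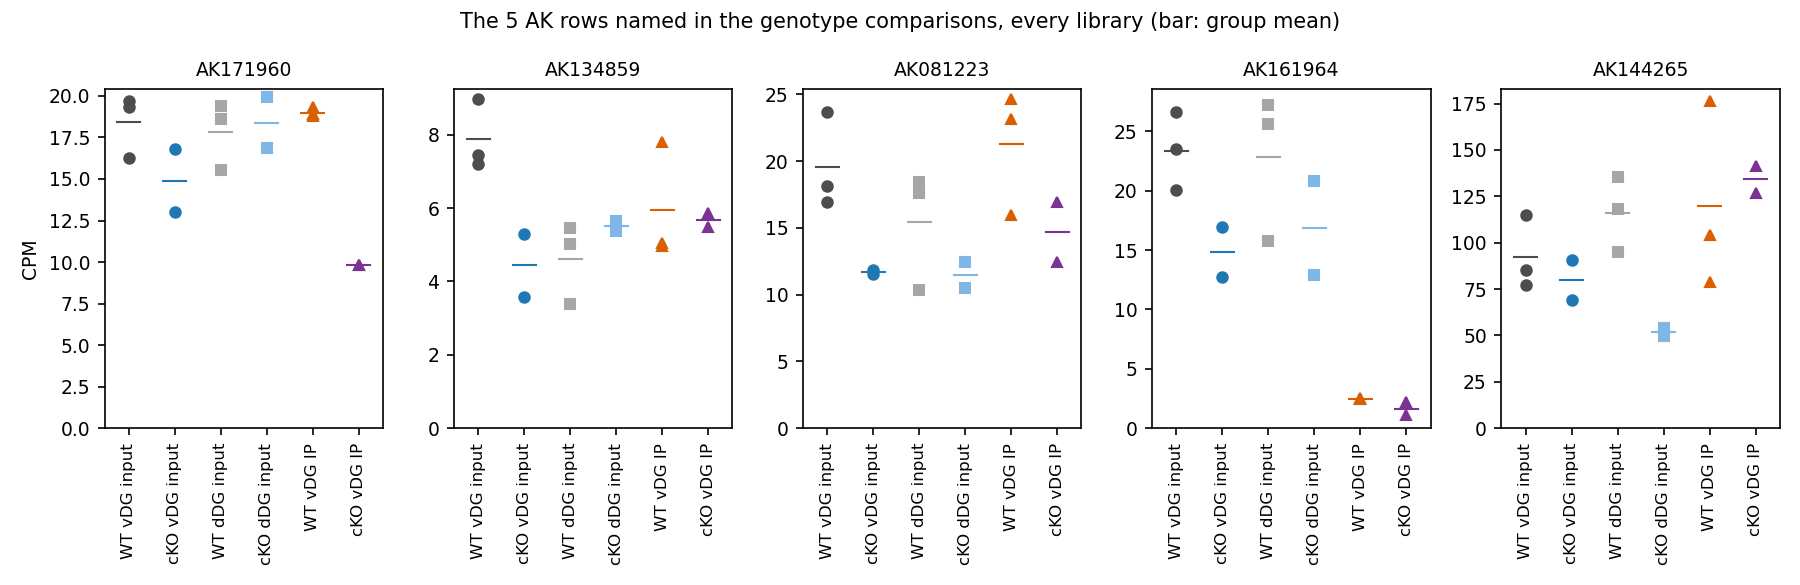
Each panel shows the CPM of an AK row in every library, with bars at group means and axes starting at 0, for the 5 rows named in the genotype comparisons. AK171960 is at 9.83 and 9.81 CPM in the cKO IPs and at 18.8 to 19.3 CPM in the WT IPs, and AK144265 is at 49.8 and 54.0 CPM in the cKO dDG inputs and at 94.9 to 135 CPM in the WT dDG inputs.

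The regions were compared between inputs of the same genotype. In cKO, 22 AK rows (14.7%) were lower in the vDG than in the dDG, against 8.47% of all rows tested. Another 9 (6%) were higher, against 8.56%. Among rows at or above the level of the lowest AK row, 11% were lower and 10.2% were higher. The median log2 fold change was -0.13 over the AK rows and 0.01 over all rows tested. With library size alone in place of TMM scaling, 14 AK rows were lower and 14 higher, beside 943 lower and 1778 higher among all rows in place of 1314 and 1328. The median moved to -0.06 over the AK rows and to 0.08 over all rows. Without cKO dDG input replicate 2, 9 AK rows were lower and 9 higher, and the calls over all rows were 634 lower and 794 higher.

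AK034568 had the largest loss in the vDG, at 5.72 and 7.15 CPM against 20.6 and 21.9 CPM in the dDG of cKO (log2 fold change -1.79, SE 0.18, FDR 4.74e-07). AK137397 was at 11.6 and 10.3 CPM in the vDG and had a mean of 19.2 ± 0.293 CPM in the dDG (SD, n = 2), a log2 difference of -0.88 (SE 0.16, FDR 0.000722). AK046304 was at 19.7 and 18.3 CPM in the vDG and 29.2 and 37.1 CPM in the dDG (-0.87, SE 0.15, FDR 0.000317). The rows higher in the vDG were led by a single row. AK083927 was at 9.68 and 9.52 CPM in the vDG and 2.53 and 2.09 CPM in the dDG of cKO (log2 fold change 1.98, SE 0.23, FDR 4.11e-06). AK033069 was at 19.1 and 23.1 CPM in the vDG and 10.6 and 9.53 CPM in the dDG (0.99, SE 0.17, FDR 0.00026). AK051417 was at 8.51 and 8.49 CPM in the vDG and 4.50 and 3.89 CPM in the dDG (0.95, SE 0.21, FDR 0.00392). None of these 6 rows was depleted in the cKO IP. Of the 33 rows that were, 2 were called by region in cKO (6.06%, beside 20.7% of the 150 AK rows and 17% of all rows tested). Both comparisons use the 2 cKO vDG inputs, so the calls are not independent. The 33 rows also include 20 with a mean under 10 CPM in the WT vDG inputs. At that level 6 of 52 AK rows were called by region in cKO.

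In WT, 17 AK rows (11.3%) were lower in the vDG, beside 6.09% of all rows tested, and 18 (12%) were higher, beside 9.26%. Among rows at or above the level of the lowest AK row, 7.11% were lower and 10.9% were higher. AK137397 was at 8.62, 7.30 and 7.33 CPM in the vDG and 15.9, 17.2 and 19.1 CPM in the dDG (-1.20, SE 0.16). AK030646 (-1.09, SE 0.28) and AK034568 (-1.01, SE 0.21) were lower as well. AK083927 was 2.84-fold higher, at a mean of 11.7 ± 2.01 CPM in the vDG (SD, n = 3) and at 4.43, 3.83 and 3.88 CPM in the dDG, followed by AK032426 (0.86, SE 0.16) and AK043780 (0.82, SE 0.20). Of the 22 rows lower in cKO, 12 were lower in WT, which is 54.5% and 70.6% of the lists, and of the 9 rows higher in cKO, 6 were higher in WT, which is 66.7% and 33.3%. In 0 rows were the calls opposite. The 2 comparisons share no library, and over the 150 rows their log2 fold changes had a Pearson r of 0.68 and a Spearman rho of 0.55. The number of calls in WT was 19 and 23 without WT vDG input replicates 2 and 3, and 23 and 20 without WT dDG input replicates 1 and 2. Over all rows these fits had 1748, 1735, 1928 and 1653 calls, in place of 2365.

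**Figure D5:**
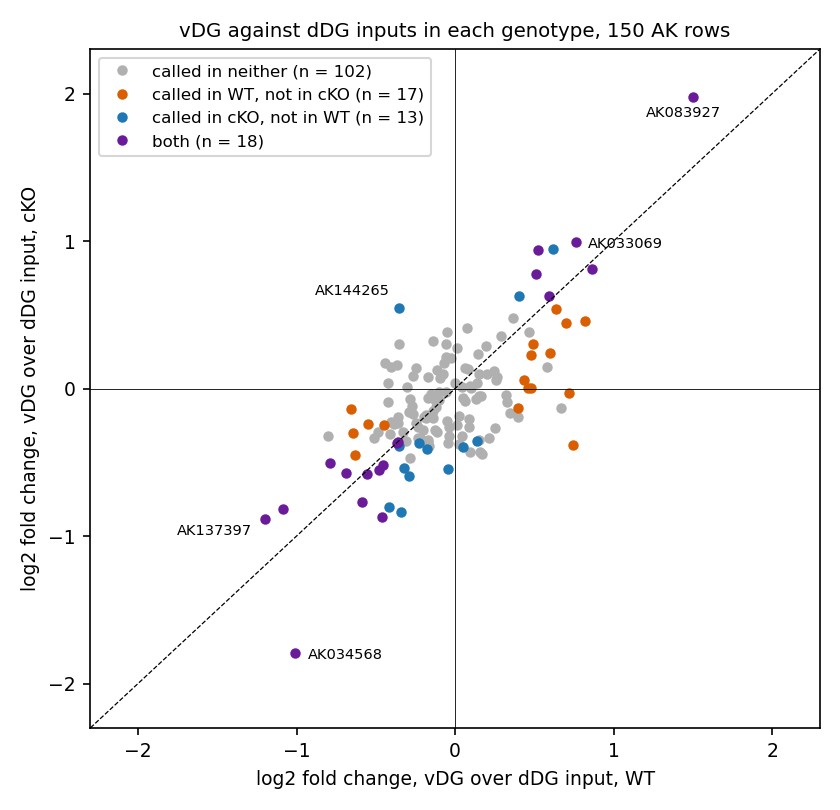
Each point is an AK row, placed by its log2 fold change of vDG over dDG input in WT (x axis) and in cKO (y axis), coloured by whether it was called in both, either or neither genotype. AK083927 stands highest in both genotypes and AK034568 lowest in cKO, and 18 rows were called in both.

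The dissections differed in cell markers. The 3 mossy cell markers summed to 75.9 to 96.9 CPM in the vDG inputs and 4.12 to 6.51 CPM in the dDG inputs, carried mostly by Calb2, the calcium-binding protein calretinin. Glp1r was higher in the vDG as well, and Drd2 was called in neither genotype. The granule cell markers summed to 1052 to 1203 CPM in the vDG inputs and 1651 to 1737 CPM in the dDG inputs. This list includes Lct and Trhr, which the paper uses as markers of the dDG and the vDG, so its sum mixes position with cell type. Prox1, Dsp, C1ql2 and Lct were lower in the vDG in both genotypes, and Trhr was higher. Calb1 was called in neither, with means of 242 and 254 CPM in the WT vDG and dDG inputs. Interneuron markers summed to 386 to 515 CPM in the vDG inputs and 289 to 368 CPM in the dDG inputs, and oligodendrocyte markers to 328 to 410 CPM and 431 to 489 CPM. These 4 lists did not overlap between regions. Choroid plexus markers were at 23.6 to 30.7 CPM in the WT vDG inputs and 32.3 to 148.2 CPM in the WT dDG inputs, and at 23.1 to 38.0 CPM and 18.2 to 23.1 CPM in cKO. The part of these differences in the regional calls of AK rows was not tested.

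The difference between genotypes in the IP effect was fitted as an interaction with fraction. This fit and that of the interaction with region use the WT vDG inputs that chose the rows, so both are given as a description. With fraction, 0 of 16093 rows passed at an FDR under 0.05 (0% of all rows, and 0 of the 150 AK rows, by edgeR and by DESeq2). At an unadjusted p under 0.05, 10 AK rows passed (6.67%, beside 3.09% of all rows tested). The farthest apart was AK171899, at 5, 10 and 1 counts in the WT IPs and 20 and 20 counts in the cKO IPs, with an interaction of 2.57 on the log2 scale (SE 0.62, FDR 1), so its separation rests on few counts. The interaction of genotype with region had 0 of 16306 rows at an FDR under 0.05 (0%, and 0 AK rows by edgeR), and 20 AK rows passed at an unadjusted p under 0.05 (13.3%, beside 12.3% of all rows tested). DESeq2 called 256 rows of all (1.57%) and 1 AK row here, AK144265, whose interaction was 0.90 in edgeR (SE 0.25, FDR 0.169). Over the 7 comparisons between groups, 85 of the 150 AK rows (56.7%) were called at least once and 65 in none, beside 45.5% called at least once among the other rows at or above the level of the lowest AK row. Some of these comparisons share libraries, and 3 of them use the inputs that chose the rows.

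Of the 150 names, 1 matched the annotation used here. AK010878 carries the identifier ENSMUSG00000091931 and the symbol Gon7, a subunit of the KEOPS complex for tRNA modification, in GENCODE M21 and lies at chr12:102753275-102757803 on the minus strand of mm10. It was at 22.5, 14.2 and 22.1 CPM in the WT vDG inputs, at 19.7, 23.3 and 18.1 CPM in the WT IPs, at 22.9 and 23.5 CPM in the cKO vDG inputs and at 22.8 and 20.2 CPM in the cKO IPs. This named protein-coding gene among the AK rows was neither depleted nor enriched, with a log2 fold change in cKO of 0.06 and a 95% interval from -0.26 to 0.37. Positions and sequences of the other 149 rows were not analysed here.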

How the data were processed

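Libraries were made by the authors with kits that do not mark strand, and reads were trimmed, aligned to mm10 with STAR 2.4.2a, freed of duplicates with SAMtools 0.1.19-444 and counted with HTSeq in union mode. The deposited values used here are raw counts per gene row, of uniquely aligned reads. Reads on overlapping rows were set aside, and antisense transcripts cannot be told apart. The 25 per-sample columns of normalized counts in the 5 deposited comparison tables, and the fold changes and p-values there, were not used.

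Summary rows were removed, and the row named unknown held 0 counts. Total gene counts ranged from 19039295 to 30451430 per library, which limits precision for rows with few counts in the IP. Each comparison was fitted over all rows on its own libraries with edgeR 4.0.16 in R 4.3.3 (TMM, filterByExpr, two-sided glmQLFTest), with Benjamini-Hochberg adjustment over all rows tested. SEs and intervals came from the quasi-likelihood F statistic. The fit was tested on simulated data. DESeq2 1.42.0 and other scalings, filters, sample sets, thresholds and choices of rows were tried as alternatives. Samples were grouped by title, and p-values measure the spread between these pools of mice.

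Rows named with values are the 10 most abundant, the 5 lowest and 5 highest called in the cKO IP, up to 3 called per direction in each genotype and region comparison, the 3 rows on each side of the lower limit, and a list of named long noncoding RNAs. Other rows were chosen after their values were seen. The rows and lists were chosen with earlier results of these data known.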

Additional observations from a re-analysis of the deposited data

Results flagged for a closer look

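Reads that HTSeq set aside as ambiguous, because they overlap more than 1 row, are outside the gene counts and were looked at because unnamed rows often overlap other transcripts. They came to 8.35 to 13.8 per 100 gene counts in the 10 inputs and 3.48 to 3.76 in the 5 IPs, and the mean of the vDG inputs was 3.04 times that of the IPs. Among the WT dDG inputs, replicate 1 had 28501 CPM of AK140265 and 13.8 ambiguous reads per 100 gene counts, and replicate 3 had 11036 CPM and 8.35. Among the cKO vDG inputs, replicate 1 had 31357 CPM and 12.8, and replicate 2 had 13002 CPM and 9.22. The cKO dDG inputs went the other way, with 20259 CPM and 10.9 in replicate 1 and 19895 CPM and 12.9 in replicate 2. Which rows the ambiguous reads overlap was not tested. No group held 4 or more libraries, so no search for single outlying libraries was made.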

How the results depend on the processing

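Of 186 recomputed summary values, 144 stayed within 1.5 times the reported count or within the spread, and 42 moved beyond that. Interaction counts that stayed at 0 are among the 144. Only the median could reverse in sign, and it did not. Of 580 recomputed values of single rows, 532 stayed on the same side of their threshold, 46 lost a call and 2 gained one. Causes of the changes were not tested. With library size alone, enriched rows numbered 4 in cKO and 0 in WT, and genotype calls 4 in the vDG IP and 4 in the vDG input. Over all rows these counts were 716, 487, 115 and 301, in place of 1719, 1159, 60 and 385. With DESeq2, genotype calls numbered 5 in the vDG IP and 3 in the dDG input, and the interaction with region 1, beside 353, 188 and 256 calls over all rows (60, 5 and 0 in edgeR). Without a filter beyond 1 count in some library, enriched rows in WT numbered 5, genotype calls 6 in the vDG IP and 4 in the dDG input, and the interactions 1 with fraction (AK171899) and 3 with region. Over all rows these counts were 1623, 379, 378, 12 and 362. At 10 or more counts in every library, the vDG IP had 2 genotype calls, beside 72 over all rows in place of 60. With all 6 groups in one fit, enriched rows in WT numbered 6, genotype calls 6 in the vDG IP and 0 in either input, and region calls in cKO 17. Over all rows enriched rows in WT were then 2204 in place of 1159, and region calls in cKO 1360 in place of 2642. Genotype calls over all rows were 470 in the vDG IP, 140 in the vDG input and 0 in the dDG input, in place of 60, 385 and 5. At FDR under 0.05 the vDG IP had 0 genotype calls among the AK rows and 0 among all rows. With no fold limit 54 AK rows were lower in the cKO IP, beside 2377 rows of all in place of 1624.

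Leaving out single libraries gave 27 to 34 depleted and 4 to 11 enriched rows in cKO, 33 to 35 depleted and 1 to 4 enriched rows in WT, a median log2 fold change of -0.38 to -0.30 in cKO and 82 to 92 kept rows. Genotype calls ranged from 0 to 3 in the vDG IP, 0 to 9 in the vDG input and 0 to 1 in the dDG input, region calls from 18 to 40 in cKO and 19 to 29 in WT, and interactions stayed at 0. Where this left 1 library in a group, it was assumed to vary like the others. Calls over all rows moved too. In WT, 588 to 1584 rows of all were enriched in place of 1159, and 1653 to 2196 were called by region in place of 2365. With a replicate block by the numbers in the titles, 33 rows were depleted and 11 enriched in cKO, and region calls numbered 39 in cKO and 44 in WT. Over all rows these counts were 1707, 2152, 3859 and 2947, in place of 1624, 1719, 2642 and 2365 without the block. The methods take inputs from the lysate used for the IP, but the labels give pools of 3 mice for IPs and 2 for inputs and do not say that equal numbers mark one lysate. Deviations of same-numbered IPs and inputs correlated at 0.52, -0.22 and -0.44 in WT and 0.42 in cKO, those of vDG and dDG inputs at 0.38, -0.16 and 0.22 in WT and 0.26 in cKO, and those between genotypes at -0.30 to 0.00. In WT not every pair was above 0.1, and with 2 replicates in cKO both pairs give the same value, so pairing was not established. The file names of the cKO dDG inputs carry other numbers than their titles, so the block for the cKO regions and the dDG genotypes may join unrelated libraries. Rows under 1 CPM in the IP, 12 in cKO and 16 in WT, are limited by depth.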

Other observations

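Rows named by accessions of other kinds were chosen for a look after the AK rows had been described. The 4186 rows named DQ and a number summed to 2627 to 5218 CPM in the inputs and 622 to 737 CPM in the IPs, but only 64 of them were tested in cKO, of which 4 (6.25%) were depleted and 1 enriched, with a median log2 fold change of -0.17. The summed loss was carried by few rows, with DQ539915 at 3293 CPM in the cKO vDG inputs and 46.5 CPM in the cKO IPs. The 312 rows named BC and a number had 95 tested in cKO, of which 16 (16.8%) were depleted and 2 enriched, with a median of -0.32. Their sums were at 1455 to 1687 CPM in the inputs and 1079 to 1158 CPM in the IPs.

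The AK rows depleted in the cKO IP also spread more over the 10 inputs than the other AK rows. The ratio of the highest to the lowest input library had a median of 2.20 over the 33 depleted rows and of 1.66 over the other 117, with ranges of 1.49 to 6.61 and 1.24 to 6.72 that overlap. This was chosen for description after the values were seen, and no test was made.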
